A study of Mus musculus with 8 samples.

Results

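The Sox, Pax and Pou genes encode 3 families of transcription factors, and their expression was compared between mouse embryonic stem cells (ESCs) depleted of KDM2B and control ESCs. The genes were chosen by symbol alone (Sox plus a number, Pax plus a number, or Pou, a number, f and a number), which gave 43 genes. Of these, 39 had at least 1 probe set that names no other gene, out of 19938 such genes on the array, and they comprised all 19 Sox genes, all 9 Pax genes and 11 of 15 Pou genes. The other 4 genes are named by no such probe set and were not analysed here. Pou3f2 was read by 2 probe sets and each of the other genes by 1.

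The knockdown group, shKdm2b, consisted of 4 arrays of E14 cells that stably expressed an shRNA against Kdm2b at passages 27 to 30, and the control group, shScr, of 4 arrays of E14 cells that stably expressed a scrambled shRNA at passages 28 to 31. E14 is a feeder-independent mouse ESC line, and both groups were grown with LIF, which keeps ESCs undifferentiated, after lentiviral delivery of the shRNA and puromycin selection. Every knockdown array was 1 passage below the control array of the same replicate number. A single shRNA sequence was used in each group, and although the labels call the replicates independent they do not name separate lines, so the p-values below measure the spread between these samples. KDM2B is a CpG-binding subunit of a variant polycomb repressive complex 1, and the comparison asks which genes of the 3 families changed when it was depleted.

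SOX proteins bind DNA through a high mobility group box, PAX proteins through a paired domain and POU proteins through a POU-specific domain joined to a homeodomain. Several work in pairs: SOX2 and OCT4, the product of Pou5f1, bind side by side at enhancers of ESCs, and in neural progenitors SOXB1 and SOXC factors act with PAX6 and class III POU factors. In ESCs most developmental members of these families are held at low levels, while Sox2 and Pou5f1 are defining factors of the undifferentiated state.

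The 2 shRNA sequences, which are the only designed difference between the groups, are shown as DNA in lower case.
shKdm2b: cgctgtggaaatatctgtcat
shScrambled: cctaaggttaagtcgccctcg

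The promoter windows of the 4 members that were lower in the knockdown at an adjusted p under 0.05 follow (Sox11, Pax6, Pou3f4 and Sox4). They are shown for their CpG dinucleotides, which KDM2B binds when unmethylated, but its binding at these windows was not tested. The windows of Pax2, which was higher in the knockdown, are counted below and not printed. Each window holds 300 bases from the promoter set used here, on GRCm38.p6 and on the strand of the gene, with every CG dinucleotide in capitals. Among plus-strand genes a window most often ran from 250 bases before the gene's RefSeq start to 50 bases after it. This position was not checked for each window or on the minus strand. The windows lie at chr12:27342669-27342968 (minus strand) for Sox11, chr2:105668646-105668945 (plus strand) for the first of 2 Pax6 starts, chrX:110814129-110814428 (plus strand) for Pou3f4 and chr13:28953650-28953949 (minus strand) for Sox4.
Sox11: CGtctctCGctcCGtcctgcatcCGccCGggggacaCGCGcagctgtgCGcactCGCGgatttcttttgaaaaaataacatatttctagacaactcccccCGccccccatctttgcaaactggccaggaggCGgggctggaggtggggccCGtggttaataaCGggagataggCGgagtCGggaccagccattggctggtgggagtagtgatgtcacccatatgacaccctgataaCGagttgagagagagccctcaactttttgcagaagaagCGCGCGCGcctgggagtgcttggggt
Pax6: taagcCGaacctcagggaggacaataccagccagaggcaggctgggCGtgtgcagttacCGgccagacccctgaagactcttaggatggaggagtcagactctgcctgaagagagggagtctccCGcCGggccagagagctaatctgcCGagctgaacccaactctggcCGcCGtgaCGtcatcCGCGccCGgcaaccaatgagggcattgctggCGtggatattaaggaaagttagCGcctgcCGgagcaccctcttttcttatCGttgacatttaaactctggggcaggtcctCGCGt
Pou3f4: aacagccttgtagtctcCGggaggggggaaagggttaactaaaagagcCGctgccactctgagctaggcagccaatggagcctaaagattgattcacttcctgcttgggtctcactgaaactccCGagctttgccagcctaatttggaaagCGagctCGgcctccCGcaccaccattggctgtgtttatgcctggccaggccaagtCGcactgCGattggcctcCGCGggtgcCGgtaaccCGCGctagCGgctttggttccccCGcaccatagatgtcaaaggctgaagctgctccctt
Sox4: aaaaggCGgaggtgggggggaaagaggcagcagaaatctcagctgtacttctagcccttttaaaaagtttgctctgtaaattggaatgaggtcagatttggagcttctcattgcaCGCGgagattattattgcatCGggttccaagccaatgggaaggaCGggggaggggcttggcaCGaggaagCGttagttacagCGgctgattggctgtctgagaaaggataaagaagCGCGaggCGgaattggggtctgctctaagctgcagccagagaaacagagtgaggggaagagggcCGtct

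Total RNA was measured on Affymetrix Mouse Gene ST arrays, and all values below are log2 signals after robust multi-array averaging (RMA). Signals of different probe sets depend on their probes, so no level of one gene is set against that of another. Array medians over all probe sets lay between 8.47 and 8.53. Kdm2b itself, on chromosome 5, was lower on every knockdown array, at 8.68 to 9.45 in shKdm2b against 10.74 to 11.34 in shScr (log2 fold change -2.05, standard error 0.18, adjusted p = 0.000891 from limma). On the first principal component of all probe sets, with 51.7% of the variance, the shKdm2b arrays lay at -48.7, -24.9, -5.51 and -30.9 (replicates 1 to 4) and the shScr arrays at 22.4 to 33.7, so that shKdm2b replicate 3 was the closest of its group to the controls and also had the highest Kdm2b signal of its group.

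Across the families a few genes changed and most did not pass the test. A gene was called where most of its own probe sets passed an adjusted p of 0.05 and the one with the smallest p differed by at least 1.5-fold, which 1 member did in the direction of higher signal (Pou2f3) and 2 in the direction of lower signal (Sox11 and Pax6). Among all genes 1.42% were called higher and 1.43% lower. At an adjusted p under 0.05 with no fold minimum, 3 members were higher (Sox7, Pax2 and Pou2f3) and 4 lower (Sox4, Sox11, Pax6 and Pou3f4), against 5.75% and 4.55% of all genes. An unadjusted p under 0.05 was reached by 6 members with higher and 7 with lower signal, against 16.8% and 13.6% of all genes, so that at this level the members' counts lay near the background. The signals of the groups did not overlap for 4 members with higher signal (Sox2, Sox7, Pax2 and Pou2f3) and 6 with lower signal (Sox4, Sox11, Sox13, Pax6, Pou3f4 and Pou4f1), against 11.8% and 9.18% of all genes. The median log2 fold change of the 39 members was 0.06 and that of all genes 0.05, and 69.2% of members and 61.7% of all genes had a positive value. The 37 Hox genes had a median of 0.09 and the 43 Fox genes one of 0.06. These other large families of developmental transcription factors examined held no called gene, beside 2.85% of all genes. At an adjusted p under 0.05, 1 Hox gene (2.70%) and 3 Fox genes (6.98%) were higher and none was lower, beside 10.3% of all genes. The lowest log2 fold change among the Fox genes was -1.31, in a gene that did not pass.

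**Figure D1:**
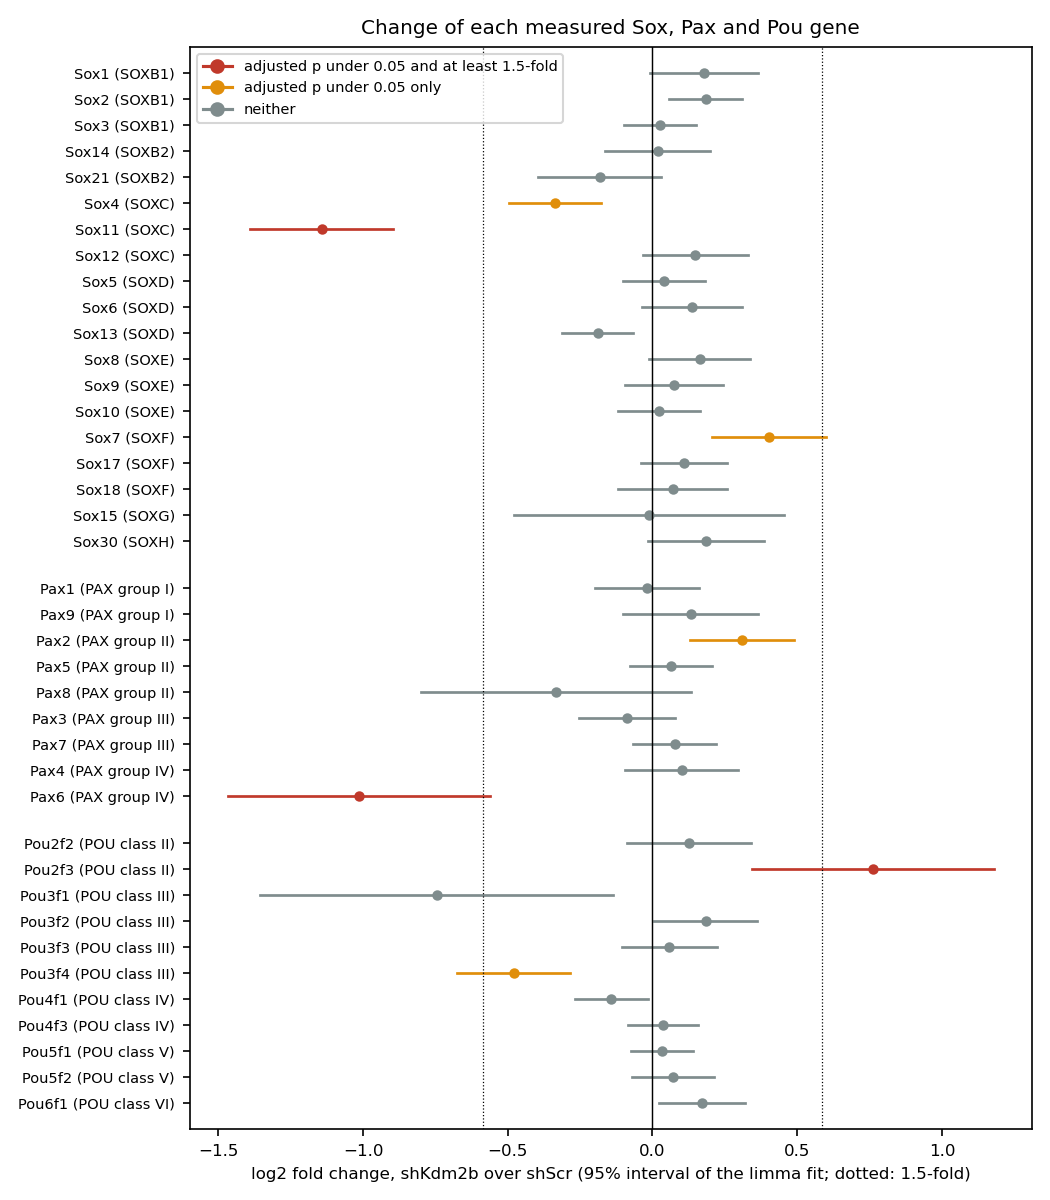
Log2 fold change of each of the 39 measured genes, shKdm2b over shScr, with the 95% interval of the limma fit, by family and group from top to bottom; dotted lines mark a change of 1.5-fold. The points of Sox11 (-1.14), Pax6 (-1.01) and, short of the test, Pou3f1 (-0.75) lie beyond the lower line and that of Pou2f3 (0.76) beyond the upper one, with called genes in red and those with an adjusted p under 0.05 only in orange.

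The SOXC group, whose members Sox4, Sox11 and Sox12 act in progenitor cells and in early neuronal differentiation, held the most significant change of the 3 families. Sox11 fell in the knockdown, at 8.95, 8.69, 8.83 and 8.93 in shKdm2b replicates 1 to 4, against 9.90, 9.74, 10.12 and 10.20 in shScr. All 4 knockdown values lay below all 4 controls, and the largest of them was below the smallest control by more than the range within either group. The log2 fold change was -1.14 (standard error 0.11, 95% interval -1.39 to -0.89, adjusted p = 0.00141 from limma). On the linear scale the signal of Sox11 fell by 54.7%. Sox11 passed in all 14 alternatives, with limma adjusted p between 0.000842 and 0.0229. One of these, which takes 1 probe set per gene, repeats the main value because Sox11 has a single probe set.

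Sox4, which overlaps with Sox11 in function during development, also fell but by less than 1.5-fold. Its signal was 9.51, 9.57, 9.72 and 9.61 in shKdm2b and 10.08, 9.87, 9.90 and 9.90 in shScr. The groups did not overlap, and shScr replicate 1 stood above the other controls. The log2 fold change of Sox4 was -0.34 (standard error 0.07, adjusted p = 0.0246 from limma). Sox12, the third of the group, had 10.83, 10.71, 10.67 and 10.96 in shKdm2b and 10.52, 10.66, 10.66 and 10.75 in shScr, with overlapping groups and a log2 fold change of 0.15 (limma adjusted p = 0.282). The fold change of Sox11 was thus below that of Sox4 by a difference of -0.81 and below that of Sox12 by -1.29 on the log2 scale, which is given as a description because the pairs were picked after the values were seen. The adjusted p of Sox4 exceeded 0.05 when shKdm2b replicate 2 (0.0792) or 4 (0.0656) or shScr replicate 2 (0.0529), 3 (0.0655) or 4 (0.0585) was left out of the limma fit, and was 0.212 with passages 28 to 30 alone.

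**Figure D2:**
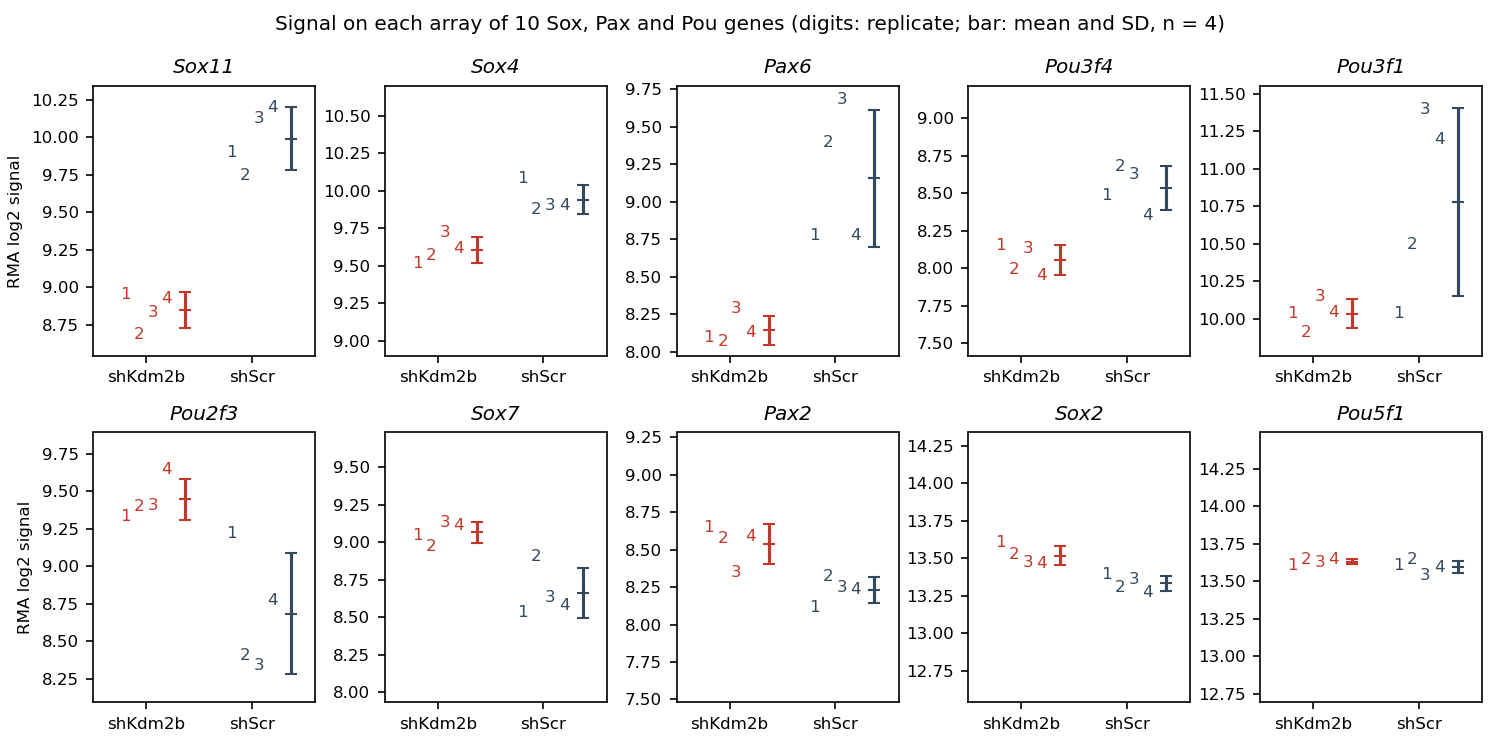
RMA log2 signal on each array of 10 genes, shKdm2b left and shScr right in each panel, with the replicate number as the mark and a bar for the mean and SD (n = 4); the vertical axes cover different ranges. Sox11 and Sox4 show knockdown arrays below all controls, Pou3f1 shows shScr replicate 1 at 10.03 among the knockdown arrays, and Pou5f1 shows overlapping groups.

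The SOXB1 group holds Sox2, the pluripotency partner of OCT4, with Sox1 and Sox3, which mark neural progenitors. Sox2 had 13.60, 13.53, 13.47 and 13.47 in shKdm2b and 13.39, 13.31, 13.36 and 13.27 in shScr. Its knockdown values all lay above the controls by a small margin (log2 fold change 0.18, standard error 0.06), and the limma adjusted p was 0.0790. With a trended, robust prior in limma, Sox2 had an adjusted p of 0.0324. Sox1 had 9.84, 9.88, 9.60 and 9.83 in shKdm2b and 9.49, 9.76, 9.60 and 9.59 in shScr, with overlapping groups (log2 fold change 0.18, standard error 0.08, limma adjusted p = 0.211). Sox3, on the X chromosome, had 10.00, 9.91, 9.84 and 9.98 in shKdm2b and 9.86, 9.95, 9.92 and 9.90 in shScr, and its log2 fold change was 0.03 (limma adjusted p = 0.798). The SOXB2 genes Sox14 and Sox21, which act as repressors in the neural tube, had log2 fold changes of 0.02 and -0.18, and neither passed the test.

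In the SOXF group, whose members act in endothelium and in endoderm, Sox7 rose and its paralogs did not pass. Sox7, also a primitive endoderm gene, had 9.05, 8.97, 9.13 and 9.11 in shKdm2b and 8.53, 8.90, 8.63 and 8.58 in shScr. All knockdown values were above the controls, with shScr replicate 2 closest to them (log2 fold change 0.40, standard error 0.09, limma adjusted p = 0.0279). Sox17, required for definitive endoderm, had 7.93, 7.73, 7.70 and 7.83 in shKdm2b and 7.64, 7.75, 7.64 and 7.74 in shScr (log2 fold change 0.11, limma adjusted p = 0.335), and Sox18, a factor of blood and lymphatic vessels, had a log2 fold change of 0.07. Leaving out shKdm2b replicate 1, 2 or 4 or shScr replicate 1, 3 or 4 brought the limma adjusted p of Sox7 to between 0.0519 and 0.0827, and passages 28 to 30 alone gave 0.136.

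The remaining Sox groups moved little. Sox13, a SOXD gene known from T cells, had 10.14, 10.00, 10.05 and 10.02 in shKdm2b and 10.24, 10.21, 10.31 and 10.21 in shScr, with no overlap but a small difference (log2 fold change -0.19, standard error 0.05, limma adjusted p = 0.0667). Without shKdm2b replicate 1 the limma adjusted p of Sox13 was 0.0472. The other SOXD genes Sox5 and Sox6, which act with Sox9 in cartilage, had log2 fold changes of 0.04 and 0.14. In the SOXE group, known for neural crest, glia, cartilage and testis, Sox8, Sox9 and Sox10 had 0.16, 0.08 and 0.02, and Sox30, a factor of sperm development, had 0.18. Sox15, the SOXG gene, varied most among the knockdown arrays of the Sox genes, at 11.96, 11.30, 10.88 and 11.56 in shKdm2b against 11.65, 11.40, 11.27 and 11.44 in shScr. The knockdown SD was 0.45 and the control SD 0.16 (n = 4 each), and its log2 fold change was -0.01 (limma adjusted p = 0.976), with a sign that depended on which array was left out.

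Among the Pax genes, Pax6, which specifies eye, forebrain and pancreatic endocrine cells, fell by about as much as Sox11 but with a wider spread. Its signal was 8.09, 8.07, 8.29 and 8.13 in shKdm2b and 8.77, 9.40, 9.68 and 8.78 in shScr. The knockdown arrays lay within a narrow band below all controls, and the controls were split, with replicates 2 and 3 above replicates 1 and 4 (SD 0.10 in shKdm2b and 0.46 in shScr, n = 4 each). The log2 fold change was -1.01 (standard error 0.20, 95% interval -1.47 to -0.56, adjusted p = 0.0212 from limma). On the linear scale this signal fell by 50.5%. The limma adjusted p of Pax6 exceeded 0.05 without shKdm2b replicate 2 (0.0683), shKdm2b replicate 4 (0.0619) or shScr replicate 2 (0.0624), and in the fit of passages 28 to 30 alone (0.0696). Pax4, the other member of group IV, which acts in pancreatic beta cells, had a log2 fold change of 0.10.

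Group II of the Pax genes, with Pax2 and Pax8 in kidney and thyroid and Pax5 in B cells, held 1 gene that rose. Pax2 had 8.65, 8.57, 8.35 and 8.58 in shKdm2b and 8.11, 8.32, 8.25 and 8.23 in shScr. The groups were separated by the gap between shKdm2b replicate 3 and shScr replicate 2 alone, and the log2 fold change was 0.31 (standard error 0.08, limma adjusted p = 0.0464). When limma was fitted with a block for the replicate pairs, the adjusted p of Pax2 was 0.0659, and it stayed under 0.05 in 1 of the 8 fits that each left out an array, the one without shKdm2b replicate 3 (0.0123). In the limma fit of passages 28 to 30 alone it was 0.303. Pax8 had 8.96, 9.38, 9.91 and 9.32 in shKdm2b and 9.39, 9.92, 9.98 and 9.61 in shScr, which overlap (log2 fold change -0.33, standard error 0.20, limma adjusted p = 0.342). Pax5 had a log2 fold change of 0.06. The genes of group I, Pax1 (-0.02) and Pax9 (0.13), which act in the sclerotome and the pharyngeal pouches, and of group III, Pax3 (-0.09) and Pax7 (0.08), which act in muscle progenitors and neural crest, did not pass the test.

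Pou2f3 was the only called member with higher signal in the knockdown, and it encodes a class II factor of keratinocytes and of chemosensory tuft cells. Its signal was 9.33, 9.40, 9.41 and 9.65 in shKdm2b and 9.22, 8.41, 8.34 and 8.77 in shScr. The groups did not overlap, but shScr replicate 1 came close to the knockdown arrays, and the controls spread widely (SD 0.14 in shKdm2b and 0.40 in shScr, n = 4 each). The log2 fold change was 0.76 (standard error 0.18, adjusted p = 0.0393 from limma), a signal higher by 69.6%. The call held in the limma fits without shKdm2b replicate 3 (adjusted p = 0.0459) and without shScr replicate 1 (0.00865), and was lost when any of the other 6 arrays was left out (0.0655 to 0.106) or when only passages 28 to 30 were fitted (0.174). Pou2f2, a class II factor of B cells, had 8.37, 8.48, 8.67 and 8.69 in shKdm2b and 8.24, 8.47, 8.46 and 8.54 in shScr, with a log2 fold change of 0.13 (limma adjusted p = 0.432).

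Class III of the POU genes, the neural class, differed within itself. Pou3f4, an X-linked gene required in the inner ear, fell, with 8.15, 7.99, 8.13 and 7.95 in shKdm2b and 8.48, 8.68, 8.63 and 8.35 in shScr. There was no overlap between the groups, and the log2 fold change was -0.48 (standard error 0.09, limma adjusted p = 0.0154), short of 1.5-fold. Without shKdm2b replicate 2 or shScr replicate 3 the limma adjusted p was 0.0559 or 0.0522, and with passages 28 to 30 alone it was 0.0617. Pou3f1, which encodes OCT6, a factor of the epiblast and of Schwann cells, had 10.03, 9.91, 10.15 and 10.04 in shKdm2b and 10.03, 10.49, 11.39 and 11.19 in shScr. The knockdown arrays were close together, and the controls ran from the knockdown level in replicate 1 to far above it in replicates 3 and 4 (SD 0.63, n = 4), so that the log2 fold change of -0.75 (standard error 0.27) had a limma adjusted p of 0.125. Without shScr replicate 1 its log2 fold change was -0.99 and its limma adjusted p 0.0274. The same control array was the one nearest to the knockdown for Pou2f3.

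Pou3f2, which encodes BRN2, a factor of neural progenitors and neurons, had 8.56, 8.39, 8.30 and 8.34 in shKdm2b and 8.12, 8.23, 8.16 and 8.35 in shScr at its more significant probe set (log2 fold change 0.18, standard error 0.08, limma adjusted p = 0.180), and 0.01 at the other. Pou3f3, or BRN1, had 9.19, 9.10, 8.99 and 9.14 in shKdm2b and 8.98, 9.21, 8.99 and 9.005 in shScr, with a log2 fold change of 0.06. As a description of the class, the fold change of Pou3f4 was below that of Pou3f2 by a difference of -0.66 on the log2 scale. It was below that of Pou3f3 by -0.54 and above that of Pou3f1 by 0.27. Across the alternatives the difference from Pou3f1 ran from 0.04 to 0.50, so its size depended on the arrays fitted. Within the other groups, on the same scale, Sox4 lay below Sox12 by -0.48 and Pax6 below Pax4 by -1.11. Sox7 lay above Sox17 by 0.29 and above Sox18 by 0.33, Pax2 above Pax5 by 0.25 and above Pax8 by 0.64, and Pou2f3 above Pou2f2 by 0.64. These differences between paralogs are descriptions, since the groups were picked after the values were seen.

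Pou5f1, which encodes OCT4, had the smallest SD over the knockdown arrays of all 39 members (0.017, n = 4). Its signal was 13.61, 13.64, 13.62 and 13.64 in shKdm2b and 13.60, 13.64, 13.54 and 13.59 in shScr, and the groups overlapped. The log2 fold change was 0.03 (standard error 0.05, 95% interval -0.07 to 0.14, limma adjusted p = 0.680). Pou5f2, a testis gene of the same class, had a log2 fold change of 0.07. In class IV, which acts in sensory neurons and hair cells, Pou4f1 had 8.31, 8.24, 8.27 and 8.27 in shKdm2b and 8.34, 8.40, 8.52 and 8.40 in shScr, a separation of small size (log2 fold change -0.14, standard error 0.06, limma adjusted p = 0.148), and Pou4f3 had a log2 fold change of 0.04. Pou6f1, a brain gene of class VI, had 9.03, 8.94, 8.83 and 8.90 in shKdm2b and 8.77, 8.85, 8.66 and 8.75 in shScr, which overlap (log2 fold change 0.17, standard error 0.06, limma adjusted p = 0.142).

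The 26 members with an unadjusted p of 0.05 or more had log2 fold changes from -0.33 to 0.18 and limma adjusted p between 0.211 and 0.976. For 25 of the 26 the 95% interval of the log2 fold change lay inside 0.58 in both directions, which is the log2 of 1.5. Small positive values were common on dim probe sets. Of the 15 members below the median probe set mean of 8.49, 12 had a positive value (median 0.08), beside 75.3% of all genes below it (median 0.06), and of the 24 members at or above it 15 had one (median 0.03), beside 51.7% of all genes there (median 0.01).

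The arrays contributed unequally to this pattern. As deviations from the control mean, the median over members was 0.15, 0.06, -0.01 and 0.07 on shKdm2b arrays 1 to 4, and that over all genes was 0.10, 0.04, 0.00013 and 0.02. shKdm2b replicate 1 was the highest of its group for 26 of 39 members, and shKdm2b replicate 3 the lowest for 17. Without shKdm2b replicate 1 the median log2 fold change of the members was 0.03. The part of these array differences in the small positive values was not tested.

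**Figure D3:**
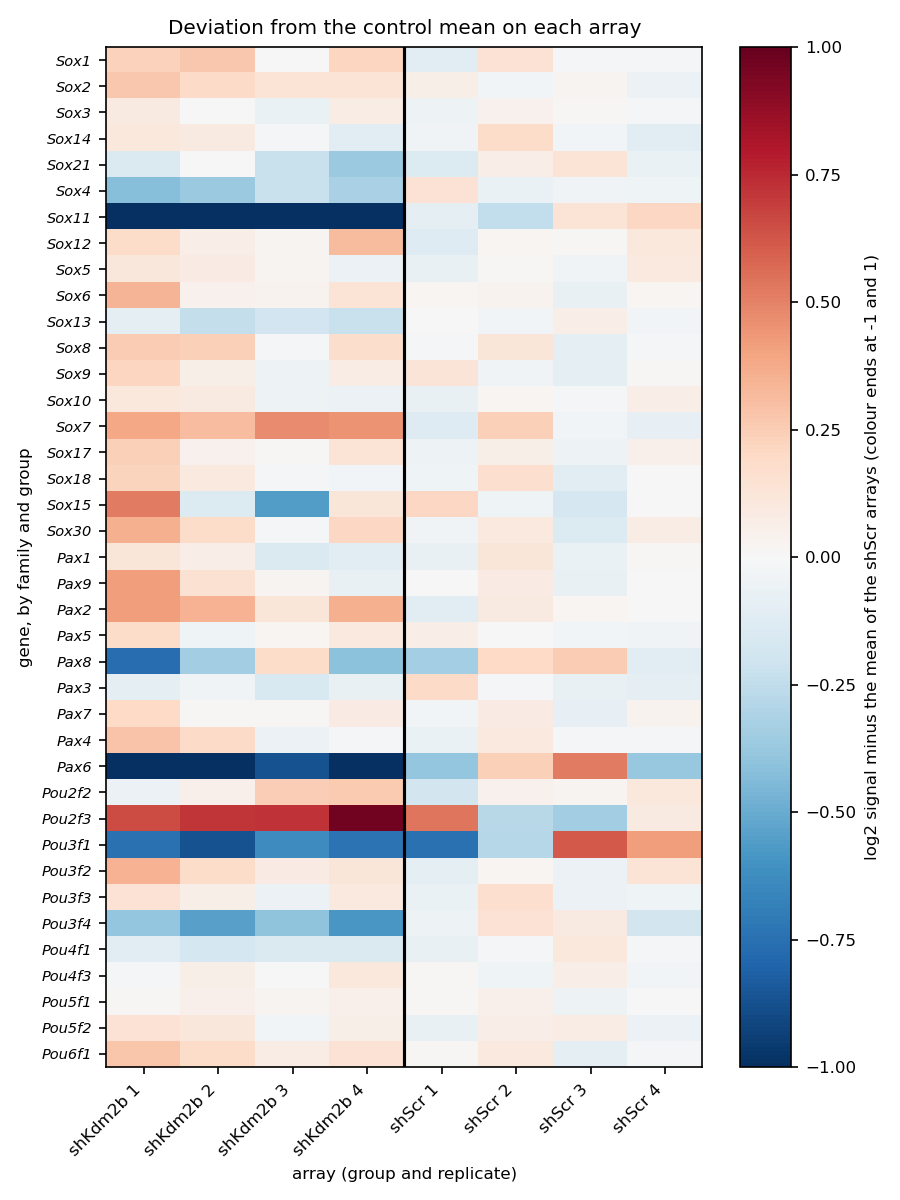
Log2 signal of each of the 39 genes on each array minus the mean of the 4 shScr arrays, with shKdm2b arrays left of the line and shScr arrays right of it, red above and blue below the control mean, and the colour scale ending at -1 and 1. Sox11, Pax6, Pou3f4 and Sox4 are blue on all 4 shKdm2b arrays, Pou2f3 and Sox7 are red on all 4, and shScr replicate 1 has the colours of the knockdown for Pou2f3 and Pou3f1.

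Known targets and partner genes of the factors were examined in 12 lists, of which 117 of 130 genes were measured. By the same calling rule 3 of them were higher and 1 was lower, beside 1.42% and 1.43% of all genes. At an adjusted p under 0.05 with no fold minimum 7 were higher and 2 lower, which is 7.69% of the list genes together, beside 10.3% of all genes. Their median log2 fold change was 0.09, beside 0.05 over all genes. All 15 measured targets of SOX2 and OCT4 in ESCs lay above the median probe set mean of 8.49. Of these targets 10 had a positive value (66.7%), beside 61.7% of all genes and 51.7% of genes at or above that mean. The list median was 0.19, and 2 of the targets were called higher. Tcl1, a co-activator of AKT kinase, rose with 12.91, 12.69, 12.59 and 12.82 in shKdm2b and 11.87, 11.74, 11.24 and 11.43 in shScr (log2 fold change 1.19, standard error 0.14, limma adjusted p = 0.00346). Tbx3, a T-box factor of naive ESCs, rose by a log2 fold change of 0.82 (standard error 0.15, limma adjusted p = 0.0180). Fgf4, a growth factor whose enhancer is a classic SOX2 and OCT4 site, rose by 0.37 (limma adjusted p = 0.0238), and Zscan10, a zinc finger factor of ESCs, fell by 0.45 on the log2 scale (limma adjusted p = 0.0488), both short of 1.5-fold.

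Genes of the neural programmes in which Sox11, Pax6 and the class III POU factors act did not move together. Among 14 neural progenitor genes none was called and the median was 0.07. The progenitor factor Gsx2 rose by a log2 value of 0.49 (limma adjusted p = 0.00931), and Nes, the intermediate filament of neural progenitors, had 9.31, 8.90, 9.04 and 9.07 in shKdm2b and 9.78, 9.26, 10.19 and 10.21 in shScr (log2 fold change -0.78, limma adjusted p = 0.0512). Among 12 neuronal genes, 10 had a positive value and Neurod1, a proneural factor, was called lower, at 8.46, 8.53, 8.99 and 9.10 in shKdm2b against 9.70, 10.63, 10.78 and 10.33 in shScr (log2 fold change -1.59, standard error 0.24, limma adjusted p = 0.00859). Map2, a cytoskeletal gene of neurons, had -0.35 (limma adjusted p = 0.0541), and the list median was 0.14. In the other direction, Msi1 of the progenitor list had 0.88 (limma adjusted p = 0.0582) and Elavl3 of the neuronal list 0.74 (limma adjusted p = 0.0607).

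In the other lists 1 gene was called. Neurog3, which specifies endocrine cells of the pancreas, rose by a log2 fold change of 0.65 (standard error 0.08, limma adjusted p = 0.00484). It was among 8 eye and pancreas genes (median 0.15), where the crystallin genes Cryaa and Cryab had 0.16 and -0.95. No gene was called among 11 of neural crest and glia (median 0.07), where Mitf, the melanocyte factor, had 0.68 at 1 of its 2 probe sets (limma adjusted p = 0.00190) and Ednrb had 0.12. None was called among 12 of cartilage and testis (median 0.10), where Matn1, a cartilage matrix gene, rose by 0.51 (limma adjusted p = 0.00339) and Acan had 0.23, or among 6 of B cells (median 0.14), where the adaptor Blnk rose by 0.34 (limma adjusted p = 0.0261) and Pou2af1, the co-activator of class II POU factors, had 0.30. The same held for 7 endothelial genes (median 0.09, Dll4 0.16 and Flt4 0.17), 8 endodermal genes (median 0.02, Dab2 -0.95 and Pdgfra 0.22), 6 muscle genes (median -0.02, Met -0.52 and Six4 -0.31), 9 kidney and thyroid genes (median 0.02, Wt1 -1.003 and Slc5a5 -0.20) and 9 pituitary and inner ear genes (median 0.05, Tshb 0.20 and Hesx1 -0.46). Of the last 10 genes named none had a limma adjusted p under 0.05.

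Markers of the ESC and of cell types that a culture could hold were set beside these changes, and in bulk RNA fewer cells of a type and less RNA per cell cannot be told apart. The mean signal of 8 ESC markers, Pou5f1 among them, lay at 13.46 to 13.50 on shKdm2b arrays and 13.24 to 13.35 on shScr arrays, with none called and 7 of 8 positive. The mean of 7 neural markers, which include Sox1 and Pax6, lay at 8.49 to 8.62 in shKdm2b and 8.97 to 9.21 in shScr. Because Pax6 is in the list, this mean holds part of the change that it is set beside. Of the 7, 4 had a negative value and 2 were called lower (Pax6 and Neurod1), beside 1.43% of all genes. Both counts include Pax6 itself, and apart from it Neurod1 alone was called. Within this list Sox1, Tubb3 and Dcx had positive log2 fold changes (0.18, 0.29 and 0.09), and Fabp7, a lipid carrier of radial glia, had 9.19 on shScr replicate 1 against 7.35 to 7.72 on the other controls.

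Primitive endoderm markers, Sox7 and Sox17 among the 6, averaged 8.80 to 9.09 in shKdm2b and 8.77 to 8.95 in shScr, and none was called. Gata4 and Gata6, which define that lineage, had log2 fold changes of 0.40 and 0.32 (limma adjusted p = 0.0877 and 0.134), and Dab2 had -0.95. The 5 measured mesendoderm markers averaged 8.62 to 8.85 in shKdm2b and 8.48 to 8.66 in shScr with none called. Among them Eomes had a log2 fold change of 0.77 (limma adjusted p = 0.0533), and the others lay between -0.04 and 0.14. The 6 trophoblast markers averaged 8.95 to 9.40 in shKdm2b and 9.20 to 9.66 in shScr. Of these, Krt8 was called lower (log2 fold change -1.24, limma adjusted p = 0.0204), and the others lay between -0.14 and 0.04. Of 7 fibroblast markers, at 7.99 to 8.24 in shKdm2b and 7.95 to 8.33 in shScr, Thy1 was called higher (log2 fold change 0.72, limma adjusted p = 0.000475), and Col1a1 and Col1a2 had -0.18 and -0.01. RMA signals have no zero that would show a marker to be absent, and the part of other cell types in the changes of Sox11, Pax6 and Sox7 was not tested.

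The number of CG dinucleotides varied widely among the promoter windows of the members, in genes that changed and in those that did not pass the test. The promoter set used here held 37 windows for 28 of the 39 measured members. It had no entry for Sox3, Sox7, Sox9, Sox10, Sox17, Sox18, Pax3, Pax4, Pou2f3, Pou3f1 and Pou4f3. The median window held 16 CG dinucleotides, beside 7 over all 32851 promoter windows. Of the 7 members with an adjusted p under 0.05, Sox7 and Pou2f3 thus had no window. The 8 windows of the other 5, of which 3 were of Pax2, held 7 to 30 (median 17). The 29 windows of the 23 genes that did not pass held 2 to 57 (median 13). Windows of 1 gene are not independent of each other. Sox11 had 21, more than 75.2% of all windows, Pax6 18 and 16 at its 2 starts, Pou3f4 15 and Sox4 12, which was more than 60.4% of all windows. Sox5 had 3, Sox15 5 and 4 of the 6 Sox6 windows 2 to 4, below the median of all windows. Pou4f1, with 57, and Sox12, with 47, had the most and did not pass the test, and the windows of Pax2 held 7, 23 and 30.

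**Figure D4:**
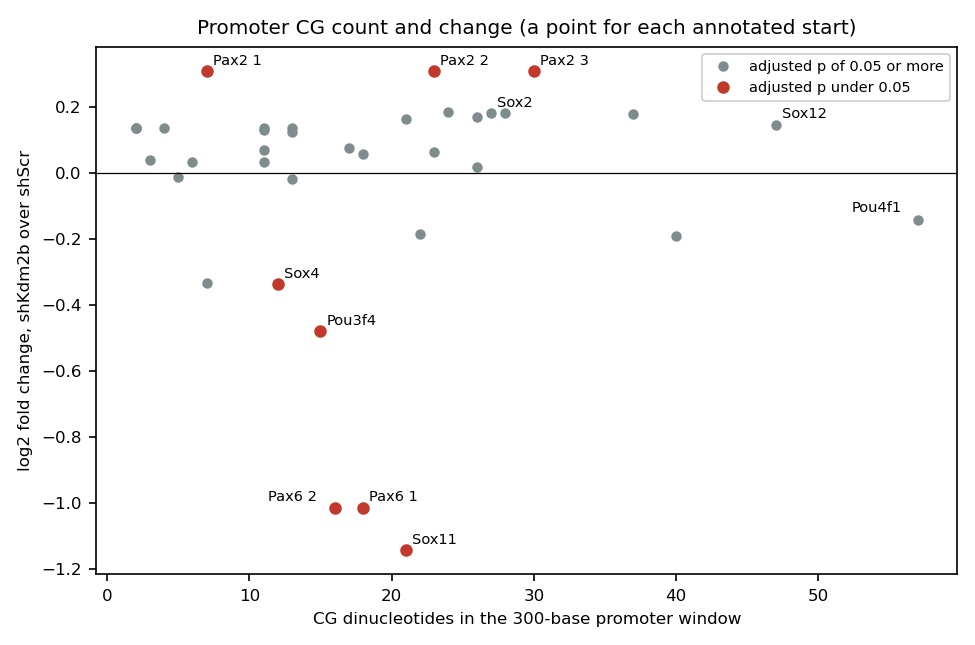
Log2 fold change of a gene, shKdm2b over shScr, against the number of CG dinucleotides in each of its 300-base promoter windows, 37 windows of 28 genes, red where the adjusted p was under 0.05; a number after a name is the number of the start. Sox11 (21) and Pax6 (18 and 16) lie in the middle of the range of CG counts, and the windows with the most, Pou4f1 and Sox12, have small changes.

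Short motifs were searched on both strands in the same windows. The octamer ATGCAAAT, which POU factors bind, was present in 2 of 37 windows (Sox1 and Sox12), or 5.41%, beside 1.74% of all windows, and ACAATG, a core that SOX proteins bind, in 5 of 37, or 13.5%, beside 12.6%. CCAAT, which binds the NF-Y complex, was present in 18 of 37 windows, or 48.6%, beside 37.4% of all windows. It was searched because it was seen in the 4 sequences printed above, each of which holds it on one strand or the other. Those 4 windows are counted among the 18, so the higher share is partly built in by this choice. CCAAT was absent from the second Pax6 window and from the 3 Pax2 windows. These matches are descriptions of the letters and not binding sites.

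**Figure D5:**
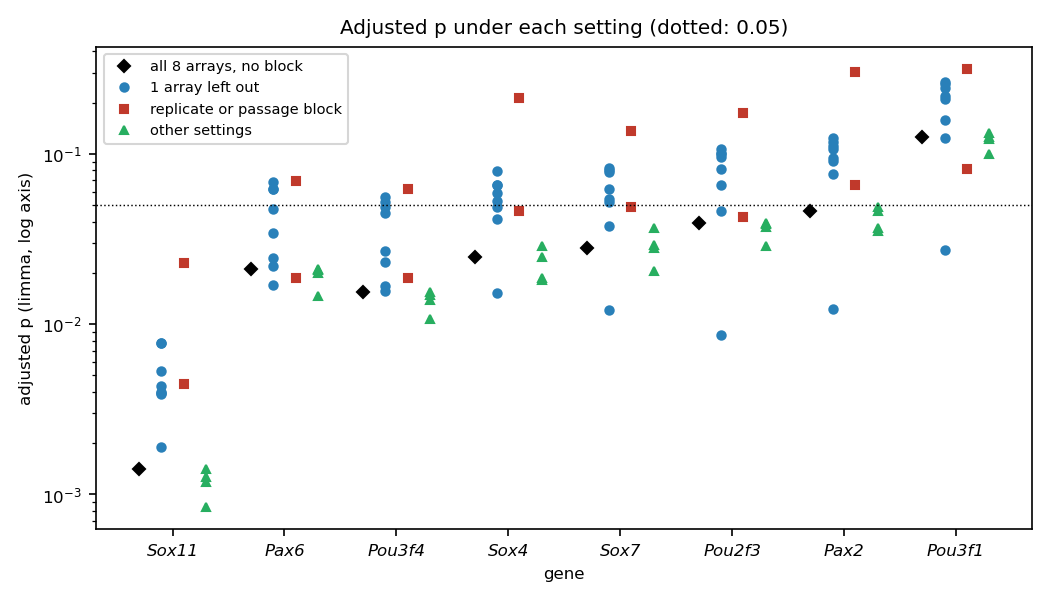
Adjusted p of 8 genes from limma on a log axis, for the fit to all 8 arrays (diamond), with 1 array left out (circles), with a replicate or passage block (squares) and under the other settings (triangles); the dotted line is 0.05. All points of Sox11 lie below the line, those of Pax6, Pou3f4, Sox4, Sox7, Pou2f3 and Pax2 lie on both sides, and Pou3f1 has 1 point below it, the fit without shScr replicate 1.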

How the data were processed

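The data were the log2 expression values that the authors deposited for 8 Affymetrix Mouse Gene ST arrays, 4 shKdm2b and 4 shScr, made from probe intensities by RMA (background correction, quantile normalization and probe summary) in oligo 1.18.1 according to the submitters' processing notes. Scanner intensities were not used here, the annotation build of the probe sets is not given in the sources used here, and RMA compresses fold changes of dim probe sets. Precision is limited by the small number of arrays.

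Of 35556 probe sets, 21789 name 1 gene, 1621 several and 12146 none in the platform annotation. Symbols were updated by gene identifier with the RefSeq table for GRCm38.p6, which held 19856 of the 19938 genes. limma 3.58.1 in R 4.3.3 (lmFit, eBayes) was fitted to all probe sets with p-values adjusted over the whole table by Benjamini-Hochberg, after testing on simulated data. A gene was called as in the study's methods, that is, where most probe sets that name no other gene passed an adjusted p of 0.05 and the one with the smallest p changed at least 1.5-fold. A gene's log2 fold change is that of its most significant probe set, and intervals are 95% intervals of the moderated fit.

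Array values are given for every member with an unadjusted p under 0.05, for Sox1, Sox2, Sox3, Sox15, Sox17 and Pou5f1, and for Pax8, Sox12, Pou2f2 and Pou3f3, which were added after their values were seen. From each list of targets every called gene and otherwise the 2 with the smallest p were named, and a few more were named after their values were seen. The members, lists and rules were chosen with earlier results of these data known. Lists are described by counts and medians and were not tested.

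The labels give the groups the same replicate numbers and describe parallel collection. After subtraction of group means, arrays that share a number had correlations of 0.239, 0.118, 0.355 and 0.222 and other cross-group pairs -0.231 to 0.0747. The shared numbers thus carried some pairing. The fit reported nevertheless has no block, as the study's methods name none, and its p-values do not use the pairing. The blocked fit is an alternative, in which Pax2 did not pass (limma adjusted p = 0.0659). Other alternatives left out each array, used only passages 28 to 30 with passage as a block, changed the eBayes prior (trend and robust), left out the 25% of probe sets with the lowest mean, repeated the quantile normalization, dropped the fold minimum or took 1 probe set per gene. Figures were drawn with matplotlib 3.10.9.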

Additional observations from a re-analysis of the deposited data

Results flagged for a closer look

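Among 78 groups of 4 arrays (39 genes, knockdown and control), 2 held an array that stood apart from the other 3 by more than the 95% limit of Dixon's test, and chance flags about 1 in 20 groups, or 3.9 of 78. Sox4 in shScr replicate 1 was at 10.085, with the other controls at 9.87 to 9.90, and without this array the log2 fold change of Sox4 was -0.29 (limma adjusted p = 0.0416). Pou3f3 in shScr replicate 2 was at 9.2099, with the other controls at 8.98 to 9.005.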

How the results depend on the processing

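With the replicate number as a block, 652 genes were called (569 without it), the 3 called members stayed called, and 6 rather than 7 members had a limma adjusted p under 0.05, Pax2 being the one lost (0.0659). It changed no other call of a member. With each of the 8 arrays left out in turn, the number of called genes ran from 358 (without shKdm2b replicate 2) to 829 (without shKdm2b replicate 3), that of called members from 1 to 4 and that of members with a limma adjusted p under 0.05 from 1 to 7. Sox11 alone of the members stayed called without shKdm2b replicate 2, shKdm2b replicate 4 or shScr replicate 2, and Pou3f1 was called as well without shScr replicate 1. Members with a limma adjusted p under 0.05 numbered 1 without shKdm2b replicate 2, 2 without shKdm2b replicate 4 or shScr replicate 3 and 3 without shScr replicate 2 or 4. With passages 28 to 30 only and passage as a block, 160 genes were called, 1 member was called and 1 had a limma adjusted p under 0.05, with fewer arrays in the fit. With no fold minimum, 2055 genes and 7 members were called. The log2 fold change of Sox15, -0.01 in the fit to all arrays, ran from -0.19 to 0.17 with an array left out and was 0.034 after a second quantile normalization. The cause was not tested for the fits that left out an array or normalized again. The median log2 fold change of the members stayed between 0.03 and 0.10. Over the log2 fold changes of 18 members, 209 values under the alternatives kept their direction and side of the threshold, 36 lost the threshold (9 of Pax2, 7 each of Pou2f3 and Sox7, 6 of Sox4, 4 of Pax6 and 3 of Pou3f4), 3 gained it (Pou3f1 without shScr replicate 1, Sox13 without shKdm2b replicate 1, Sox2 with the trended prior) and 4 changed sign, all of Sox15. Taking 1 probe set per gene repeated the main values of these members, so it could not move them. The 12 differences between paralogs, which are descriptions only, kept their direction in all 168 values. Each moved by less than the larger of its knockdown and control SDs, and that of Pou3f4 and Pou3f1 ran from 0.04 to 0.50. The replicate block, the changed prior, the removal of dim probe sets and 1 probe set per gene cannot change these differences.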
